A study of Mus musculus with 3 samples.

Results

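The X-linked group of mouse miRNAs described here holds 10 mature miRNAs from 9 hairpins of the rodent miR-506-related family, which is known from gonads and germ cells. The members were mmu-miR-881-3p, mmu-miR-878-5p, mmu-miR-878-3p, mmu-miR-871-3p, mmu-miR-470-5p, mmu-miR-741-3p, mmu-miR-743a-3p, mmu-miR-743b-3p, mmu-miR-880-3p and mmu-miR-465d-3p. They were chosen by mature name, out of 627 miRNAs in the table, when results of these data were already known, so their values are given as a description and with no test. miRNA-seq was performed on ovaries of newborn CD1 mice that had been cultured for 72 h with 0, 10 or 100 μM di(2-ethylhexyl) phthalate (DEHP), a plasticizer. The age recorded for every library was postnatal day 3. The 0 μM ovaries received the vehicle, DMSO, and all ovaries were pooled within a concentration. Each concentration had 1 library, so that an effect of the concentration and a difference between cultures or library preparations cannot be told apart. The study asked whether DEHP alters the ovarian miRNA profile during the time when germ cell cysts break down into primordial follicles.

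A miRNA is cut from a hairpin RNA whose 5p and 3p arms can each give a mature miRNA, and it recognises target mRNAs mainly through its seed, the bases behind its first base. The miR-506-related miRNAs lie close together on the X chromosome, evolve fast between mammals, and are known mostly from male germ cells, where many of them stay on while most of the X chromosome is silenced in meiosis. Among the members, miR-470-5p is known to act on the mRNA of Nanog, a pluripotency factor, and miR-743a-3p on that of Mdh2, the mitochondrial malate dehydrogenase.

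The mature sequences are printed because they show which members could share targets and whose reads could be mistaken for each other. They were taken from RefSeq on GRCm38.p6, where all 10 members had an entry, and are written 5′ to 3′ with the seed (bases 2 to 8) in capitals. The first 4 had the highest ratios between the 100 and 0 μM libraries.
mmu-miR-881-3p: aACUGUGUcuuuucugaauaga
mmu-miR-878-5p: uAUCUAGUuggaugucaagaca
mmu-miR-470-5p: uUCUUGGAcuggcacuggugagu
mmu-miR-871-3p: uGACUGGCaccauucuggauaau
mmu-miR-741-3p: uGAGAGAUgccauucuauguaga
mmu-miR-743a-3p: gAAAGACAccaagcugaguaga
mmu-miR-743b-3p: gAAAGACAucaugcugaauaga
mmu-miR-878-3p: gCAUGACAccacacuggguaga
mmu-miR-880-3p: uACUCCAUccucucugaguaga
mmu-miR-465d-3p: uGAUCAGGgccuuucugaguaa

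The 10 members had 9 different seeds. Only mmu-miR-743a-3p and mmu-miR-743b-3p shared one, and they differed at 3 of 22 positions (C9U, A12U and G18A, counted from 1 at the 5′ end, with the base of mmu-miR-743a-3p first). No other miRNA among the 529 of the table that could be matched to RefSeq had the seed of a member. The members were 22 to 23 bases long, and their GC content lay between 31.8% and 54.5%, with a median of 44.5% beside 47.6% over the 529 matched miRNAs. A shared feature lay at the other end, where 6 of the 10 members closed with the bases UAGA. Over the whole family in the table, 9 of 36 miRNAs had this end, or 25%, and 3 of these were the identical 3p miRNAs of miR-465a, miR-465b and miR-465c. None of the 493 matched miRNAs outside the family had it. Of the members with the UAGA end, mmu-miR-743a-3p (−1.08), mmu-miR-743b-3p (−1.18), mmu-miR-878-3p (−1.09) and mmu-miR-880-3p (−1.26) had log2 ratios of 100 over 0 μM below 0. The ratios of mmu-miR-741-3p (0.25) and mmu-miR-881-3p (3.18) were above 0. Of those without it, mmu-miR-878-5p (2.94), mmu-miR-470-5p (2.47) and mmu-miR-871-3p (2.20) were above 0, and mmu-miR-465d-3p had 0 counts at 100 μM. Whether the end goes with a direction was not tested.

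All 9 hairpins of the members lay on the minus strand of chromosome X between positions 66776757 and 66822713 (GRCm38.p6, the mm10 build named in the submitters' processing notes), a stretch of 46.0 kb. They were part of a cluster of 19 hairpins over 62.4 kb, all on the minus strand, from 66776757 to 66839125. The cluster lay between Slitrk2 (66648951 to 66661402), which encodes a neuronal membrane protein, and Fmr1 (68678536 to 68717963), which encodes the RNA-binding protein FMRP. In the GENCODE M21 annotation no other gene overlapped a member's hairpin. Mir878 (66801508 to 66801585) and Mir881 (66801944 to 66802021), which gave the members with the highest ratios, were separated by only 358 bases, and Mir743 and Mir743b by 437 bases.

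The hairpins Mir878 and Mir881 are printed to show where their mature arms lie, with the 5p and 3p arms in capitals (78 bases each).
Mir878: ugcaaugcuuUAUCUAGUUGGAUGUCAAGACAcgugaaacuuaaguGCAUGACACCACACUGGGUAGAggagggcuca
Mir881: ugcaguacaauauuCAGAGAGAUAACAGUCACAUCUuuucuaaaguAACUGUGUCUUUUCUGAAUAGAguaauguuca

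The libraries held between 5064602 and 5952274 counts, and the 100 μM library stood apart from the others. Its 10 most abundant miRNAs took 70.5% of the counts, beside 45.4% at 0 μM and 45.6% at 10 μM, and its median count per miRNA was 97 beside 232 and 227. Counts were therefore divided by median-of-ratios size factors (1.38, 1.35 and 0.546 at 0, 10 and 100 μM), and a log2 ratio is that of normalized counts with 0.5 added. All 10 members passed the minimum mean of 10 normalized counts, as did 587 of the 627 miRNAs. Intervals are exact 95% intervals. Without molecular identifiers the reads were not independent molecules, and the intervals cover counting error only. Markers of other cell types moved between the libraries as well, some of them little. At 0, 10 and 100 μM, normalized counts summed to 948, 1009 and 835 for red blood cells (3 of 3 found). They were 16.0, 10.4 and 14.7 for miR-122-5p of liver. The sums were 76.2, 54.2 and 42.1 for white blood cells (2 of 2 found) and 284, 214 and 480 for skeletal muscle (3 of 3 found). The normalized counts of the endothelial miR-126a arms (2 of 2 found) summed to 46170, 52252 and 9855 at 0, 10 and 100 μM, and those of miR-143-3p and miR-145a-5p of smooth muscle and stroma (2 of 2 found) to 214447, 170354 and 793809. The latter sum was mostly miR-143-3p, with a log2 ratio of 1.92 at 100 over 0 μM, whereas that of miR-145a-5p was −1.20. The gonadal miR-202 arms summed to 31188, 40382 and 19964, and the germ cell and early embryo markers of the miR-290 to miR-295 cluster (5 of 6 found) to 2318, 1640 and 4846. Of these 5 markers miR-290a-5p (−0.69) and miR-293-3p (−0.17) had log2 ratios below 0 at 100 over 0 μM, and in CPM (counts scaled to the library total) the sum was lower at 100 than at 0 μM, with 608, 436 and 444. The libraries were made from whole ovaries, which hold germ cells and somatic cells, so the counts do not show which cells the members came from. The part of these shifts in the members' values was not tested, and in bulk ovaries fewer cells of a type and less RNA per cell cannot be told apart.

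Taken as a sum, the group was abundant in the newborn ovary and made up a larger share of the 100 μM library. The members had 90749 counts at 0 μM, 75275 at 10 μM and 218421 at 100 μM, which was 1.73% (1.72% to 1.74%), 1.49% (1.476% to 1.497%) and 3.67% (3.65% to 3.68%) of the library. The summed normalized level was lower at 10 than at 0 μM by a log2 ratio of −0.24 (−0.25 to −0.22). At 100 μM it was 6.08-fold that at 0 μM, a log2 ratio of 2.60 (2.59 to 2.61), and the log2 ratio of 100 over 10 μM was 2.84 (2.83 to 2.85). These last comparisons share the 100 μM library, and those with 0 μM share the 0 μM library. The sum remained higher at 100 than at 0 μM under every scaling tried, but its log2 ratio was 1.09 when libraries were scaled to total counts.

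A single miRNA, mmu-miR-881-3p, carried 52.3%, 45.4% and 78.0% of this sum at 0, 10 and 100 μM. mmu-miR-881-3p had 47423 counts at 0 μM, 34173 at 10 μM and 170434 at 100 μM. It was the 31st most abundant of the 627 miRNAs in the 0 and 10 μM libraries and the 7th in the 100 μM library. Without it, the remaining 9 members held 0.825% (0.817% to 0.832%), 0.812% (0.804% to 0.819%) and 0.806% (0.799% to 0.813%) of the library, and their log2 ratio of 100 over 0 μM was 1.48, or 2.80-fold. The share of the library that the other 9 members held was thus nearly level over the 3 libraries, whereas the normalized sum was not.

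**Figure D1:**
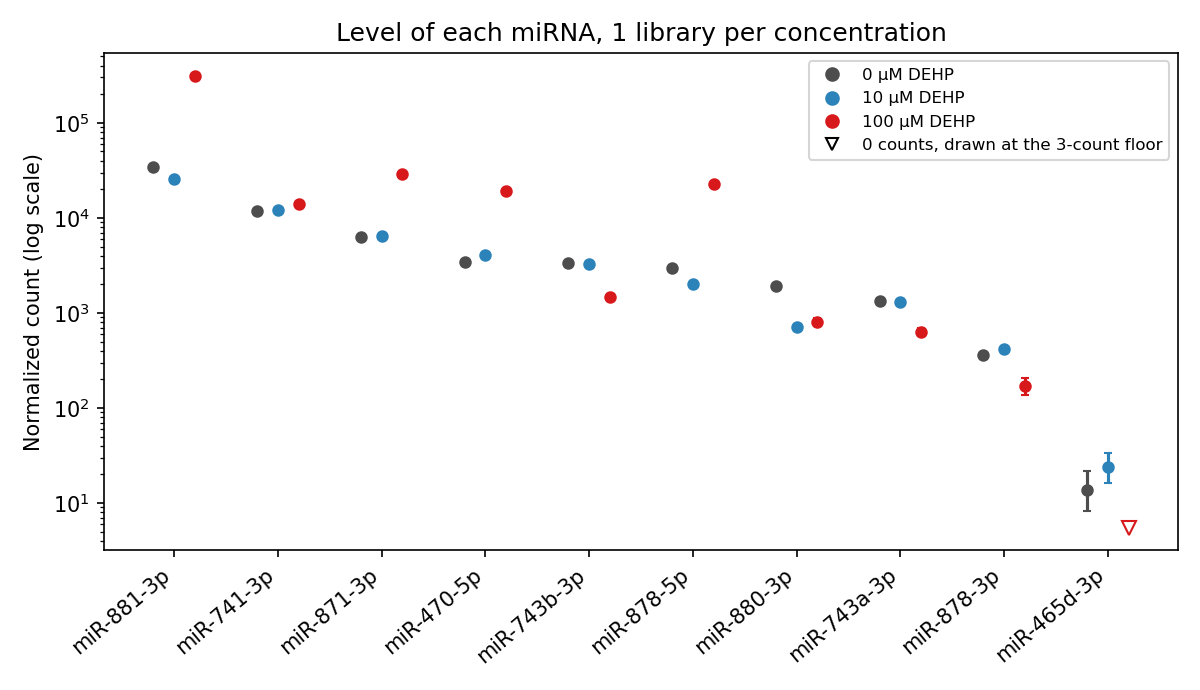
Normalized counts of the 10 members (vertical axis, log scale) in the libraries of 0, 10 and 100 μM DEHP (1 library each), with exact 95% counting intervals, most of which are smaller than the points. At 100 μM, miR-881-3p, miR-871-3p, miR-470-5p and miR-878-5p sit above their levels at 0 and 10 μM, and miR-465d-3p, with 0 counts, is drawn at the floor of 3 counts.

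At 100 over 0 μM, 4 of the 10 members had a log2 ratio above 2. mmu-miR-881-3p had the highest ratio, 3.18 (3.17 to 3.20), or 9.07-fold, and its normalized counts were 34411, 25352 and 312245 in the 0, 10 and 100 μM libraries. mmu-miR-878-5p had 4096, 2738 and 12433 counts, and its log2 ratio was 2.94 (2.89 to 2.99), or 7.66-fold. Both were also the members, beside mmu-miR-880-3p, whose level at 10 μM was below that at 0 μM by more than the counting error, with log2 ratios of −0.44 (−0.46 to −0.42) and −0.55 (−0.62 to −0.48). mmu-miR-470-5p, which is known to act on Nanog, had 4770, 5544 and 10446 counts and a log2 ratio of 2.47 (2.42 to 2.52), or 5.53-fold. mmu-miR-871-3p had 8642, 8754 and 15774 counts and a log2 ratio of 2.20 (2.17 to 2.24), or 4.61-fold. All 4 had their highest count and their highest normalized count in the 100 μM library. Scaled to total counts, they stayed higher at 100 μM, but their log2 ratios were 1.67, 1.42, 0.95 and 0.69 for mmu-miR-881-3p, mmu-miR-878-5p, mmu-miR-470-5p and mmu-miR-871-3p, none of them above 2.

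mmu-miR-741-3p was the second most abundant member at 0 μM and showed how far the scaling reached. It had 16217 counts at 0 μM, 16380 at 10 μM and 7658 at 100 μM. After normalization its levels were 11767, 12152 and 14030, with a log2 ratio of 0.25 (0.21 to 0.29) at 100 over 0 μM. This direction turned with the scaling, to −1.26 with total counts and −0.51 with library sizes that left out the 10 most abundant miRNAs.

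The other 5 members were lower at 100 than at 0 μM, under each scaling. The seed-sharing mmu-miR-743b-3p and mmu-miR-743a-3p lay together, with 4573, 4366 and 797 counts for the former and 1836, 1759 and 344 counts for the latter. Their log2 ratios of 100 over 0 μM were −1.18 (−1.29 to −1.08) and −1.08 (−1.25 to −0.91), whose intervals overlapped, and at 10 over 0 μM both were −0.03, with intervals that included no difference. The miRNA that is known to act on Mdh2 therefore had its lowest level in the 100 μM library. mmu-miR-878-3p, from the other arm of the hairpin of mmu-miR-878-5p, had 496, 560 and 92 counts and a log2 ratio of −1.09 (−1.43 to −0.77).

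mmu-miR-880-3p was the only member whose level was below that at 0 μM by more than the counting error at both 10 and 100 μM. It had 2677 counts at 0 μM, 969 at 10 μM and 443 at 100 μM. The log2 ratio was −1.43 (−1.54 to −1.33) at 10 over 0 μM, −1.26 (−1.41 to −1.11) at 100 over 0 μM and 0.17 (0.01 to 0.34) at 100 over 10 μM. The last of these turned with the scaling. It was −1.36 with total counts and −0.63 with library sizes that left out the 10 most abundant miRNAs. At 10 over 0 μM, mmu-miR-880-3p was the only one of the 10 members beyond 1 on the log2 scale. The quartiles of all 587 miRNAs were −0.37 and 0.29 in this comparison, and the share of all miRNAs beyond 1 was not computed.

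mmu-miR-465d-3p was the least abundant member, and its values are limited by depth. It had 19 counts at 0 μM, 32 at 10 μM and 0 at 100 μM. At 100 μM the floor of 3 counts was 5.50 normalized counts, and the upper limit of the counting interval was 6.76. Its level at 0 μM was 2.51-fold this floor, with the 19 counts taken as exact. The upper limit of the counting interval for the log2 ratio of 100 over 0 μM, −0.89, allows a smaller difference. At 10 over 0 μM the log2 ratio was 0.76, with an interval from −0.08 to 1.69 that included no difference. Its bases from position 2 on matched those of the 3p miRNA of miR-465a at 19 of 21 positions, differing at G17A and A22G (counted from 1 at the 5′ end of mmu-miR-465d-3p), so reads between these paralogs are uncertain.

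**Figure D2:**
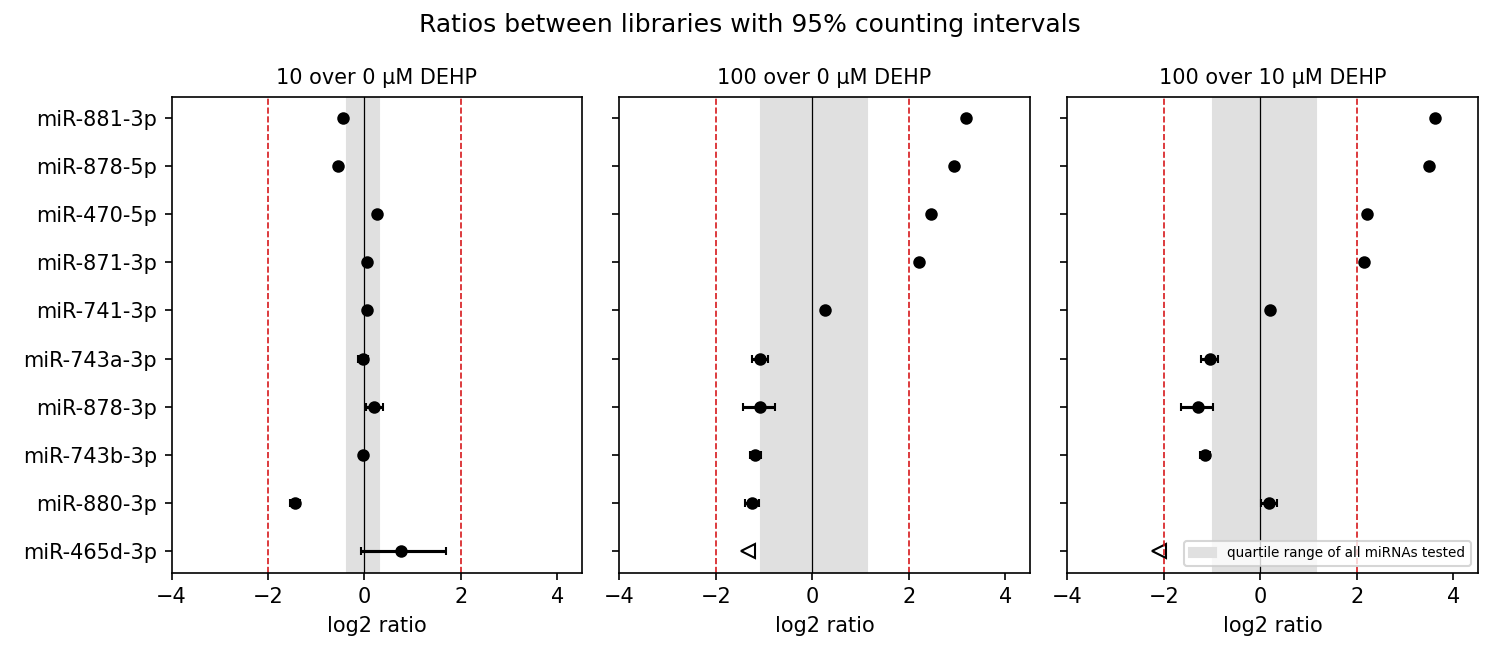
Log2 ratios of normalized counts for the 10 members (horizontal axes) in the comparisons of 10 over 0, 100 over 0 and 100 over 10 μM DEHP, with 95% counting intervals. The grey band spans the quartiles of the 587 miRNAs, the dashed lines mark −2 and 2, and the open triangle is the floor of miR-465d-3p. At 100 over 0 μM, 4 members lie above 2, although none does with total-count scaling, under which miR-741-3p is also lower.

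Read against the whole table, the group was spread to both sides. At 10 over 0 μM, 0 of the 10 members were above 2 and 0 below −2, beside 0% and 0.681% of the 587 miRNAs, and the members' median log2 ratio was 0.01 beside 0.02 over all. At 100 over 0 μM, 4 members were above 2, beside 10.4% of all miRNAs, and 1 was below −2, beside 9.37%. The one below was mmu-miR-465d-3p, whose fitted ratio rests on the value added to its count of 0, while its floor and the limit of its counting interval do not reach −2. The members' median was −0.41, also with mmu-miR-465d-3p at its floor, beside −0.01 over all, so that the median and the summed level differed in sign. At 100 over 10 μM, which shares the 100 μM library, 4 members were above 2, beside 12.3%, and 1 below −2, beside 8.69%, with a median of 0.19 beside −0.03. The quartiles of all 587 miRNAs were −1.06 and 1.12 at 100 over 0 μM, and of the 10 members only mmu-miR-741-3p had its ratio between them. Yet the lower quartile lay within the counting intervals of mmu-miR-743a-3p (−1.25 to −0.91) and mmu-miR-878-3p (−1.43 to −0.77). It also lay within that of mmu-miR-465d-3p (upper limit −0.89). With total-count scaling, 0 members were above 2 and 5 below −2 at 100 over 0 μM, beside 4 and 208 of the 587 miRNAs. With library sizes that left out the 10 most abundant miRNAs, 2 were above and 2 below, beside 23 and 128 of the 587. The median of all miRNAs moved to −1.51 and −0.77 under these scalings, in this order. Because members were chosen with results known, nothing is read from these counts about the group.

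The make-up of the group, which is free of the scaling between libraries, changed between the 10 and 100 μM libraries. mmu-miR-881-3p made up 52.3% of the group's counts at 0 μM, 45.4% at 10 μM and 78.0% at 100 μM. mmu-miR-741-3p went from 17.9% and 21.8% to 3.51%, and mmu-miR-743b-3p from 5.04% and 5.80% to 0.365%. The share of mmu-miR-878-5p was 4.51%, 3.64% and 5.69%. That of mmu-miR-470-5p was 5.26%, 7.37% and 4.78%, and that of mmu-miR-871-3p 9.52%, 11.6% and 7.22%. Thus, within the group, only mmu-miR-881-3p and mmu-miR-878-5p had a larger share at 100 than at 0 μM.

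**Figure D3:**
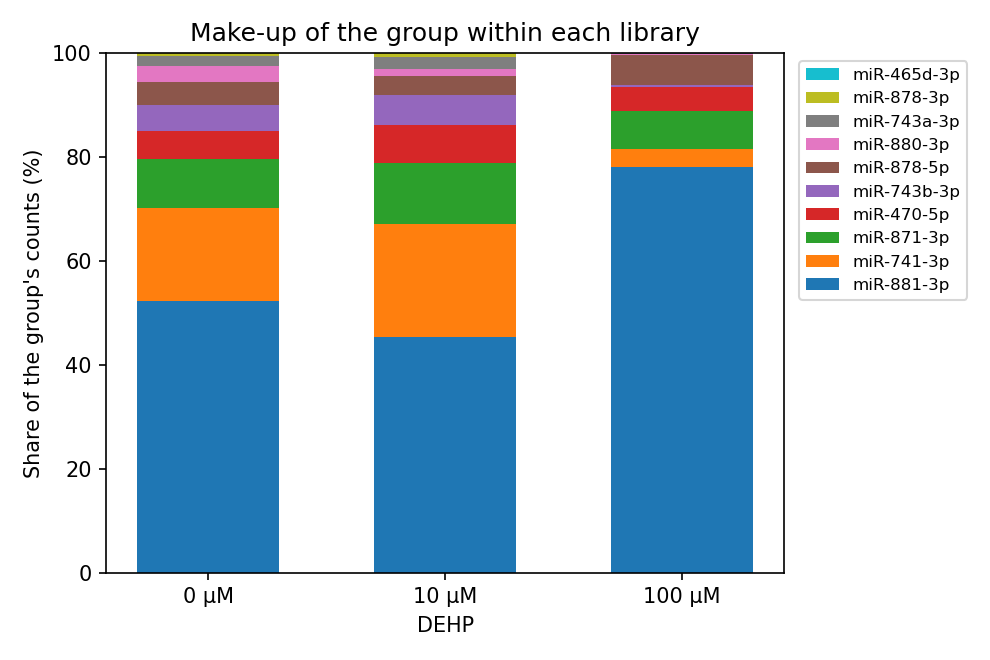
Stacked bars of the share of each member in the group's counts (vertical axis, percent) in the libraries of 0, 10 and 100 μM DEHP. miR-881-3p fills 52.3%, 45.4% and 78.0% of the bars, and miR-741-3p 17.9%, 21.8% and 3.51%.

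The arms of a hairpin come from the same RNA, and their ratio within a library does not depend on the scaling. For miR-878, both of whose arms are members, the ratio of 5p to 3p counts was 8.26 (7.52 to 9.08) at 0 μM, 4.89 (4.46 to 5.36) at 10 μM and 135 (110 to 168) at 100 μM. The log2 change of this ratio was −0.76 (−0.95 to −0.57) at 10 over 0 μM and 4.03 (3.70 to 4.37) at 100 over 0 μM. Such changes were common in the 100 μM library. Among the 170 hairpins with both arms above the minimum, 1.18% changed by more than 2 on the log2 scale at 10 over 0 μM, 34.1% at 100 over 0 μM and 38.2% at 100 over 10 μM, and miR-878 ranked 18th of the 170 by the size of its change at 100 over 0 μM. In the family, 0, 8 and 8 of 15 hairpins were beyond 2 in these comparisons. The 15 include miR-465a, miR-465b and miR-465c, which share 1 count for the 3p arm, and miR-465d at the floor.

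The member hairpins did not all shift to the same arm. In miR-871 the 5p arm had 1142, 1027 and 397 counts, and the ratio of 5p to 3p went from 0.132 and 0.117 to 0.0252, toward the 3p member. In miR-741 the 5p arm had 186, 154 and 7 counts, a log2 change of the ratio of −3.60 (−4.98 to −2.58) at 100 over 0 μM, again toward the 3p member. The miR-470 3p arm had 14, 14 and 0 counts beside at least 4770 counts of the 5p member in each library. In these hairpins and miR-878, the arm that was already more abundant at 0 μM gained further. The miR-743a hairpin went the other way, with 401, 373 and 481 counts of the 5p arm and ratios of 0.218, 0.212 and 1.40, so that the less abundant arm became the more abundant one at 100 μM. In miR-743b the ratio went from 0.0975 and 0.0767 to 0.226, a smaller log2 change of 1.21.

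**Figure D4:**
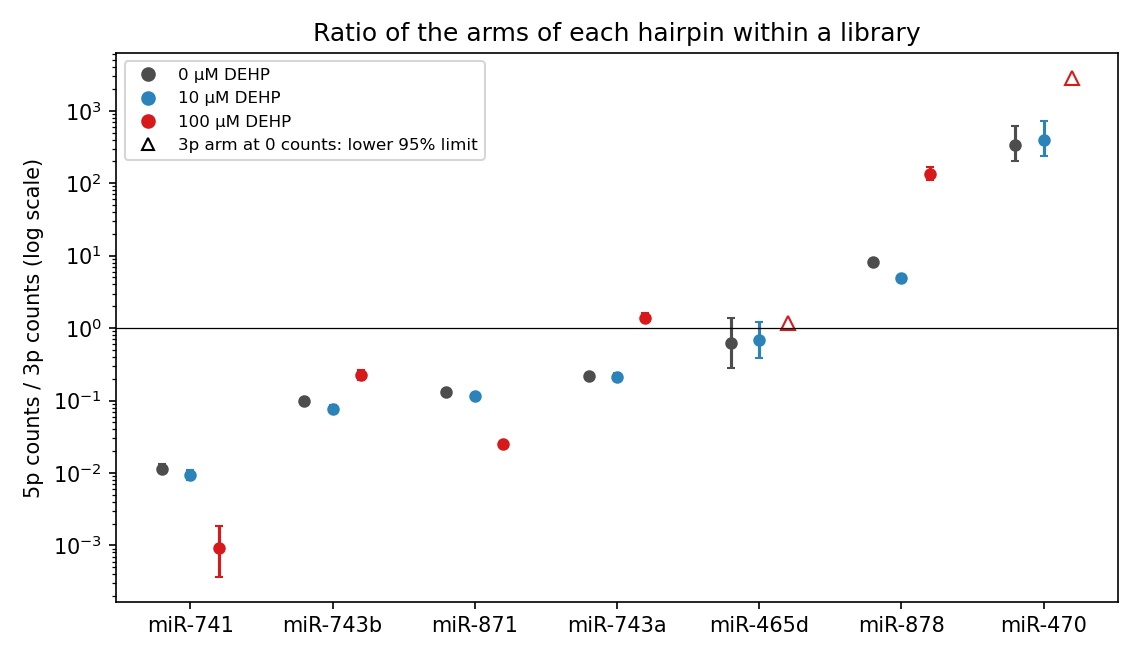
Ratio of 5p to 3p counts (vertical axis, log scale) of the 7 member hairpins with both arms in the table, in the libraries of 0, 10 and 100 μM DEHP, with 95% counting intervals. Open triangles are lower limits where the 3p arm had 0 counts. At 100 μM the ratio is higher for miR-878 (135) and miR-743a (1.40) and lower for miR-741 and miR-871 than at 0 μM.

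The rest of the family showed a smaller difference as a sum. The table held 26 further family miRNAs, or 24 when the identical 3p miRNAs of miR-465a, miR-465b and miR-465c are counted once, and 22 of the 24 passed the minimum. Their counts summed to 34790, 33616 and 27888, with a log2 ratio of −0.02 at 10 over 0 μM and 1.02 at 100 over 0 μM on the normalized scale. As a share of the library the direction at 100 μM turned, since they held 0.662%, 0.664% and 0.469% of the counts at 0, 10 and 100 μM. At 100 over 0 μM 2 of the 22 were above 2, beside 10.4% of all miRNAs, namely mmu-miR-465b-5p (2.34) and mmu-miR-465c-5p (2.17), and 3 were below −2, beside 9.37%, namely mmu-miR-741-5p (−3.35), mmu-miR-463-3p (−2.95) and mmu-miR-201-3p (−2.82). Their median was −0.15. In CPM, mmu-miR-465b-5p had 954 at 0 μM and 1688 at 100 μM and mmu-miR-465c-5p 1207 and 1893, so that both stayed higher at 100 μM by less than the normalized ratios. The miR-465 5p miRNAs differ by few bases, mmu-miR-465a-5p from mmu-miR-465c-5p by A14G and G20C and mmu-miR-465b-5p from mmu-miR-465c-5p by U13C, and are printed because their counts diverged.
mmu-miR-465a-5p: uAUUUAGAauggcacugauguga
mmu-miR-465b-5p: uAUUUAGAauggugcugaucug
mmu-miR-465c-5p: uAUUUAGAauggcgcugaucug

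mmu-miR-465b-5p had 5014, 5099 and 10047 counts and mmu-miR-465c-5p 6342, 6411 and 11270, whereas mmu-miR-465a-5p, with the same seed, had 2426, 2511 and 303. How the counting divided reads among such paralogs is not given in the sources used here, so their separate levels are uncertain.

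Along the cluster, some neighbours shared a direction and others did not. The 4 members above 2 came from the middle of the cluster, with mmu-miR-470-5p next to mmu-miR-871-3p and mmu-miR-881-3p next to mmu-miR-878-5p. Outside the group, mmu-miR-465b-5p (2.34) and mmu-miR-465c-5p (2.17) were above 2 as well and came from hairpins nearer its upstream end. The members mmu-miR-743a-3p and mmu-miR-743b-3p at its downstream end were both lower. Yet mmu-miR-878-3p from the same hairpin as mmu-miR-878-5p, and mmu-miR-880-3p from the next one downstream, were lower at 100 than at 0 μM.

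**Figure D5:**
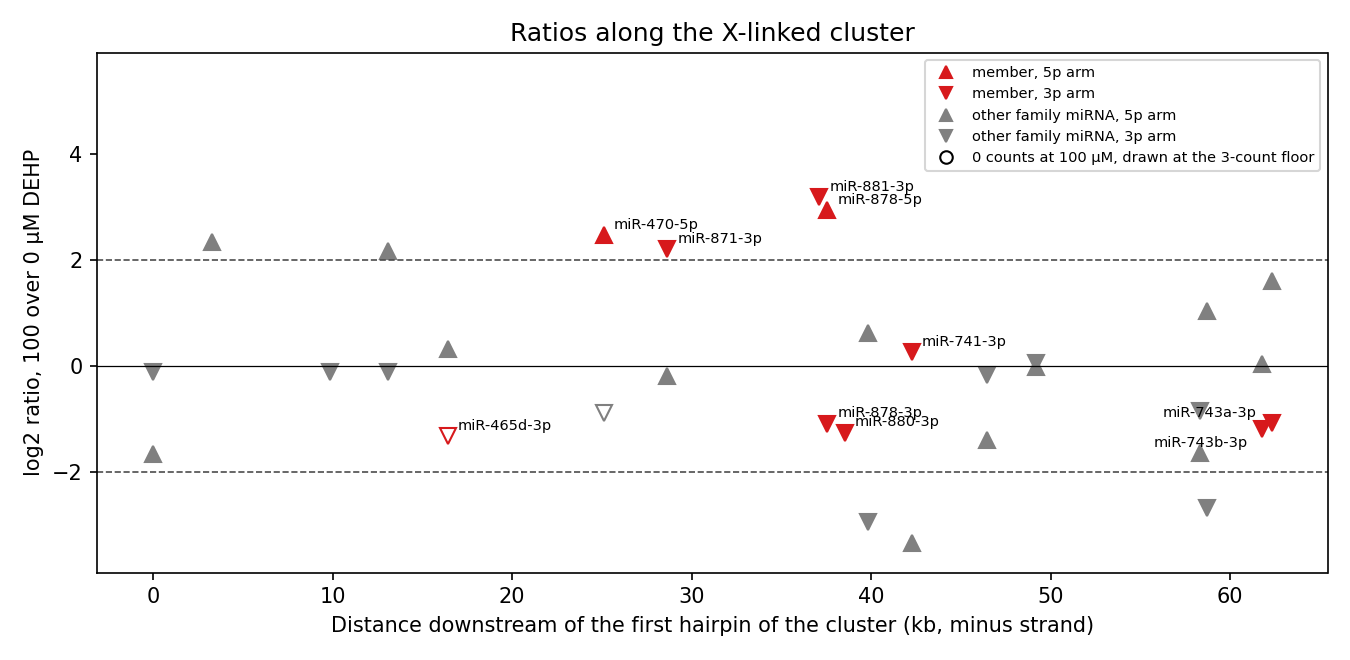
Log2 ratio of 100 over 0 μM DEHP (vertical axis) for the family miRNAs of the cluster against the distance in kb of their hairpin downstream of the first hairpin on the minus strand (horizontal axis). Members are red and other family miRNAs grey, and open triangles are floors at 0 counts. The highest members, miR-881-3p (3.18) and miR-878-5p (2.94), come from hairpins 358 bases apart, and miR-878-3p (−1.09) comes from the same hairpin as miR-878-5p. With total-count scaling miR-741-3p is below 0.

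The values of other gonadal and germ cell miRNAs are given beside those of the group. The miR-290 to miR-295 cluster, known from early embryos and germ cells, had a summed log2 ratio of −0.23 at 10 over 0 μM and 1.51 (1.46 to 1.57) at 100 over 0 μM. At 100 over 0 μM, 2 of its 9 miRNAs were above 2, beside 10.4% of all miRNAs, and 0 below −2, beside 9.37%. The share of the library that the cluster held was nearly level between 0 and 100 μM, at 0.0970%, 0.0837% and 0.0968% in the 0, 10 and 100 μM libraries. That of the group was 1.73%, 1.49% and 3.67%. Without mmu-miR-881-3p, the share of the other 9 members was nearly level too, at 0.825%, 0.812% and 0.806%. The gonadal miR-202 arms went opposite ways, with log2 ratios of 0.39 and −0.74 for mmu-miR-202-5p and −0.32 and 0.78 for mmu-miR-202-3p at 10 over 0 and 100 over 0 μM. Scaled to total counts, mmu-miR-202-3p too was lower at 100 than at 0 μM, with 184 CPM beside 307 CPM. With 1 library per concentration, whether the group differs from either was not tested. The miRNAs outside the family whose pair of log2 ratios was nearest to that of the members' sum, by Euclidean distance over the 3 libraries and among 553 candidates, were mmu-miR-3470b (distance 0.114), mmu-miR-294-3p and mmu-miR-532-5p (0.139 each), mmu-miR-181b-1-3p (0.142) and mmu-miR-673-3p (0.242). Of these, mmu-miR-294-3p belongs to the miR-290 to miR-295 cluster and had a log2 ratio of 2.70 at 100 over 0 μM.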

How the data were processed

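After trimming, the authors mapped the reads to the mouse genome (bowtie2) and quantified miRNAs with miRDeep2. The deposited values are raw counts, 1 row for each pair of mature miRNA and precursor. The submitters' processing notes name the mm10 build and DESeq2, and other versions are not given in the sources used here. The 3 columns were matched to concentrations by the sample labels. The table has 961 rows for 627 miRNAs, since 79 fill several rows, and the row of highest total was kept. Size factors were computed with DESeq2 1.42.0 and, as alternatives, factors with edgeR 4.0.16 in R 4.3.3. Ratios and exact Clopper-Pearson and Poisson intervals were computed with SciPy 1.17.1 in Python 3.11.15, tested on simulated data. Values were normalized counts with 0.5 added, a mean of at least 10 and a log2 threshold of 2, and 3 counts or fewer were the floor. Members, gene lists and alternatives were chosen with earlier results of these data known. The miRNAs named are all members, the rest of their family by a fixed list, and the 5 nearest in pattern. Alternatives were scaling by TMM, upper quartiles, total counts, or totals that left out the 10 most abundant miRNAs, summed rows, 1 count added, a threshold of 1, and no minimum or one of 100. With 1 library per concentration no p-value was computed.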

Additional observations from a re-analysis of the deposited data

How the results depend on the processing

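No paired analysis was possible because each concentration had 1 library. The summed log2 ratios at 10 over 0, 100 over 0 and 100 over 10 μM were −0.21, 2.68 and 2.89 with TMM, −0.22, 1.09 and 1.30 with total counts, −0.18, 2.62 and 2.80 with upper-quartile scaling, and −0.20, 1.84 and 2.04 with library sizes that left out the 10 most abundant miRNAs. Members above 2 and below −2 were 0 and 5 at 100 over 0 μM and 1 and 4 at 100 over 10 μM with total counts, and 2 and 2 in both without the 10 most abundant. Over all 587 miRNAs, those above and below at 100 over 0 μM were 4 and 208 with total counts, and 23 and 128 without the 10 most abundant. Shares over all miRNAs at 100 over 10 μM were not computed for these scalings. With a threshold of 1, members above 1 and below −1 were 0 and 1 at 10 over 0 μM. They were 4 and 5 at 100 over 0 μM and 4 and 4 at 100 over 10 μM. The quartiles of all miRNAs at 100 over 0 μM, −1.06 and 1.12, themselves lay beyond this threshold, and shares over all miRNAs beyond 1 were not computed. With a minimum of 100, 0 members were below −2 in the comparisons with 100 μM, since mmu-miR-465d-3p was no longer included. Of 180 alternative ratios of single members, 124 stayed within the counting interval, 56 moved and 11 changed sign. Of 30 ratios under each scaling, 9 moved with TMM, 19 with total counts, 8 with upper-quartile scaling and 20 without the 10 most abundant. Summed rows and 1 count added moved none. Each member filled 1 row, so that summing rows could change only the size factors and was no check on the members' counts. Depth limits mmu-miR-465d-3p, and the variation between cultures was not measured.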
